A study of Mus musculus with 15 samples.

Results

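The promoters described here are entries of protein-coding genes that had an expression of 0 in 2 mouse cell-types and that few ChIP-MNase fragments covered. They were chosen as the coding entries of the deposited promoter annotation with a coverage score of 100 or less and an expression of exactly 0 both in non-stimulated dendritic cells (DCs) and in non-stimulated fibroblasts. The score counts, as the authors give it, the fragments within 1 kb of the transcription start site (TSS) in the non-stimulated data. This rule selected 3884 of 25881 promoters, which is 15.01% of all, 17.1% of the 22751 coding promoters and 80.7% of the 4810 coding promoters silent in both cell-types. Score and expression chose these promoters, so both are given as a description only. The median score was 30, the middle 50% of scores lay between 16.25 and 50, and 326 promoters had a score of 0. They are called silent low-coverage promoters below, where silent refers to this expression value only. Among them, 127 stood on unplaced contigs and 385 had an accession with several copies. Whether expression reads could be placed at such entries was not tested, so a 0 there does not show that the gene is silent.

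ChIP-MNase pulls down long pieces of chromatin with an antibody first and digests them with micrococcal nuclease afterwards, which leaves nucleosome-sized DNA whose ends mark nucleosome positions. The data hold 15 sets of nucleosome occupancies around every TSS. Each of 4 sets pools 2 replicates of H3K4me1 ChIP-MNase, from DCs that were non-stimulated or given LPS at 100 ng/ml for 1 h and from 3T3 fibroblasts, an immortalised line, that were non-stimulated or given TNF-α at 5 ng/ml for 1 h. Another 8 H3K4me1 libraries are single replicates of fibroblasts, with 2 each for control non-stimulated, control TNF-α, BAF-knockdown non-stimulated and BAF-knockdown TNF-α cells. In the knockdown cells a stably expressed shRNA lowers Brg1 and Brm, the catalytic subunits of the BAF chromatin remodelling complex. The last 3 libraries come from fibroblasts after 1 h of TNF-α and used antibodies against RNA polymerase II (pol-II) phosphorylated at serine 7 (S7P, 2 libraries) or serine 5 (S5P, 1 library). The pooled sets and the S5P library have no replicate error. The study describes its replicates as independent samples, and p-values measure the spread between the single libraries. All 12 DC marker genes (such as Itgax and H2-Ab1) had higher expression in the DC column, and all 12 fibroblast marker genes (such as Col1a1 and Sparc) had higher expression in the fibroblast column. None of these 24 genes was among the silent low-coverage promoters.

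H3K4me1 is a histone mark found at promoters and enhancers, including many that are not transcribed, and active promoters usually carry a nucleosome-depleted region (NDR) just before the TSS with regularly spaced nucleosomes behind it. Genes of sensory receptors, skin and hair proteins and germ-cell proteins often stand in large clusters of similar copies and are transcribed only in their own tissue. Such clusters raise a further point for any sequencing assay, because a read from a repeated stretch cannot be given to 1 copy.

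To show what these promoters look like, the 150 bases before the TSS are printed for the member with the highest score in each of the 6 families that hold the most members. The coordinates refer to mm9, the build of the deposited data. Olfr1384, an odorant receptor gene, has its stretch at chr11:49326971-49327120 (plus strand), and Gm5128, a predicted gene, at chrX:131907674-131907823 (plus strand). The pheromone receptor genes Vmn1r184 and Vmn2r20 have theirs at chr7:27051701-27051850 (plus strand) and chr6:123368080-123368229 (minus strand). The cDNA clone 4930519G04Rik has its stretch at chr5:115303574-115303723 (plus strand) and Slc25a31, an ADP/ATP carrier of the mitochondria of male germ cells, at chr3:40512644-40512793 (plus strand). Capitals mark CpG dinucleotides and any TATAAA on either strand.
Olfr1384: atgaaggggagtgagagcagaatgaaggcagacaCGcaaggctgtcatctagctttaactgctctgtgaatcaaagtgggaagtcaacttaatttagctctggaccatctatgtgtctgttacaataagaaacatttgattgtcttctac
Gm5128: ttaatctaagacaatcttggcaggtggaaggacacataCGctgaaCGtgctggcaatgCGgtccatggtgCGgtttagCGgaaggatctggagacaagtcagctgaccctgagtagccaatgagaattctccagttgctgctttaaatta
Vmn1r184: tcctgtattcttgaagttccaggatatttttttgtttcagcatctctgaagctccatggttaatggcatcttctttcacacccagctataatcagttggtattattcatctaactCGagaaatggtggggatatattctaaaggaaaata
Vmn2r20: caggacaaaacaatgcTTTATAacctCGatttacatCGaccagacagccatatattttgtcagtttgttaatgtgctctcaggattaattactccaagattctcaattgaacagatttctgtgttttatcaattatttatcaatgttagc
4930519G04Rik: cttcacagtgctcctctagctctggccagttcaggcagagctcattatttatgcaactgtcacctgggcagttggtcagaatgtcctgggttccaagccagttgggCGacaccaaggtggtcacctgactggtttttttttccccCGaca
Slc25a31: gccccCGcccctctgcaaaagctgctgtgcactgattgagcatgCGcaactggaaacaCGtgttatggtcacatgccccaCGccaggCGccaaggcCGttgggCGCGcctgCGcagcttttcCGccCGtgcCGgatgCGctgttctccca
Both the odorant and the Vmn1r stretch hold 1 CpG, whereas that of Slc25a31 holds 13. The GC content of the 150 bases is 32.7% in Vmn2r20, 36.0% in Vmn1r184, 41.3% in Olfr1384 and 64.7% in Slc25a31. Only the Vmn2r20 stretch, of these 6, has a TATAAA, on the opposite strand.

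The sequence of the whole group followed the first of these patterns. The median GC content within 200 bp of the TSS was 45.6% over the 3757 members with placed sequence, against 58.4% over all promoters. Over the silent coding promoters with scores above 100 it was 52.6%. A CpG island at the TSS (over 50% GC with a CpG frequency more than 0.6 of that expected from base composition) was present at 300 members, or 7.99%. It was present at 48.3% of all promoters, at 12.0% of the 926 silent coding promoters with higher scores and at 76.1% of the 4619 low-coverage coding promoters expressed in both cell-types. TATAAA on either strand stood in the last 150 bases before the TSS of 18.3% of members and of 7.42% of all promoters. The silent coding promoters with higher scores came near the members with 16.0%, and the expressed low-coverage promoters had 3.55%. CCAAT was as frequent at members (26.7%) as overall (26.1%), and the palindromic motif of early B-cell factor was rare in both (0.213% and 0.509%). These matches describe the letters only.

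Named gene families held 2375 of the 3884 members, spread over 53 of the 55 families searched for. The families and tissue lists used below were chosen with results of these data known, so their counts describe the group and support nothing further. Receptors for smell, pheromones, taste and trace amines made up 1345 members, or 34.6%. Odorant receptors (Olfr) formed the largest family with 969 members, which is 88.4% of their 1096 coding promoters. Type 1 vomeronasal receptors had 231 of 244 and type 2 vomeronasal receptors 109, or 87.2% of theirs. Predicted genes with no other name followed with 330, and cDNA clones with 107 of 384.

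Among families of skin and secretions, keratin associated proteins of the hair shaft had 34 members of 54 promoters, and the cornified envelope proteins of the epidermis 29 of 33. Beta defensins had 30 of 42 and alpha defensins, the antimicrobial peptides of Paneth cells, 24 of 24. Germ-cell families varied, with 34 of 35 Prame-like genes, 26 of 31 Rhox homeobox genes and 7 of 7 Obox homeobox genes but 14 of 25 Mage genes, 22 of 70 Spata and Tex testis genes and 3 of 16 Xlr and Slx genes. Solute carriers, with 47 of 427 (11.0%), and zinc finger proteins, with 14 of 411 (3.41%), were below the 17.1% of all coding promoters. Interleukins and their receptors (symbols starting with Il) had 20 of 95, or 21.1%. TATAAA was frequent in several of the clustered families, at 79.2% of alpha defensins, 76.5% of keratin associated proteins, 62.5% of secretoglobins and 56.0% of keratins, and it was absent in the 150 bases of all 21 potassium channel promoters.

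Genes known for 1 tissue were found among the members in 11 of 12 tissue lists, with 50 of the 146 listed genes that had a promoter. The salivary and lacrimal list had 4 of 6 and the exocrine pancreas list 7 of 12, including Cpa1, Ctrb1 and Try4, which encode digestive proteases. All 3 were well covered in the single H3K4me1 libraries: Cpa1 had values above 0 in 87.9% ± 5.6 of bins, Ctrb1 in 84.0% ± 11.6 and Try4 in 89.6% ± 5.7 (SD, n = 8). Islet genes contributed 4 of 8, with Ins1 at a score of 18.75 and Ins2 at 97.5. The fast myosin genes Myh1, Myh2 and Myh4, which are neighbours on chromosome 11, were members with scores of 57, 23.75 and 18. No hepatocyte gene of 14 was a member, and each of their promoters had an expression above 0 in the fibroblast column.

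Members stood close together. Chromosome 7 held 617 of them, which is 29.5% of its coding promoters, the X chromosome 381 (37.2%) and chromosome 2 401 (20.8%). Along the placed chromosomes, 1392 of 3757 members (37.1%) stood in 68 runs of at least 10 promoters with no other promoter in between. Odorant receptors led 31 of these runs and vomeronasal receptors 15.

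The longest run had 88 promoters on chromosome 2, from Olfr1079 (TSS at 86379070) to Olfr1188 (88399609), and 86 of them were odorant receptors. It was covered in 65.7% of bins of the single libraries. The second had 61 promoters on the X chromosome from Gm4297 to Btbd35f23, with a median score of 0 and 0.370% of bins covered. The third, 59 promoters on chromosome 7 from Olfr559 to Olfr67, ended next to the beta-globin gene Hbb-b2, whose score was 177. Runs of 44 promoters on chromosome 9 (Panx3 to Olfr919) and 43 on chromosome 7 (Ovch2 to Olfr519) came next, with 69.6% and 62.0% of bins covered in the single libraries. The odorant receptor runs were thus covered in most bins, and the predicted-gene run on the X chromosome in almost none.

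To set coverage beside repeated sequence, each promoter was cut into overlapping 31-base words. A word was called placeable if it had at most 5 exact copies in mm9 and no second copy within 10 kb of any promoter, after the filters that the study describes for its reads. The median member was placeable in 94.4% of its words, against 99.1% of all promoters. At 2217 of 3757 members (59.0%) at least 90% of words were placeable, and at 9.53% fewer than 10% were. Such poorly placeable promoters made up 2.56% of all promoters and 0.0866% of the low-coverage promoters expressed in both cell-types. Among the silent coding promoters with higher scores they made up 7.45%, near the share of the members.

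Rows with no signal stood on unplaced contigs or had little placeable sequence. Of all members, 202 (5.20%) had no value in any of the 15 sets, against 237 of all 25881 promoters. Of the 202 members, 127 stood on unplaced contigs, whose sequence was not used here. The other 75 all had fewer than 10% of words placeable, with a median of 0%. Predicted genes accounted for 118 of the 202, type 1 vomeronasal receptors for 7 and cDNA clones for 3, while no odorant receptor was among them. In alphabetical order the first 10 symbols were 2010315B03Rik, AF067063, AY761185, Aida, B020031M17Rik, BC147527, Brox, Btbd35f14, Btbd35f16 and Btbd35f18. The entries of Aida and Brox stood on unplaced contigs. At the other end, 3250 members (83.7%) had a value in all 15 sets. Only 6 of the 2217 members with at least 90% placeable words lacked a value in any of the 15 sets.

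The pooled sets and the other libraries differed at repeated promoters, for a cause that was not tested. Another 215 members had no value in the 8 single H3K4me1 libraries but did have one in a pooled set, and the median placeable share was again 0%. Over all 25881 promoters, 418 had no value in the single libraries but one in a pooled set. A clear case was the set of 24 members in which fewer than 10% of words had more than 5 genomic copies but over 90% had another copy near a promoter. They were covered in 80.4% to 84.5% of bins in the 4 pooled sets, in 0.708% to 1.67% in the 8 single H3K4me1 libraries and in 0.771% to 2.69% in the pol-II libraries. Where over 90% of words had more than 5 copies (140 members), the pooled sets too were covered in 0.861% to 1.55% of bins only.

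Single members show the same split. Vmn2r20, whose sequence is printed above, was covered in 96.0%, 96.5%, 99.0% and 98.5% of bins in DCs, LPS-treated DCs, fibroblasts and TNF-α-treated fibroblasts. It had no value in any of the other 11 libraries, and 0% of its words were placeable. Gm5128 was alike, with 93.5% to 97.5% in the pooled sets and nothing elsewhere. The alpha defensins as a family were covered in 58.7% to 86.8% of bins of the pooled sets but in 8.67% (range 6.58% to 10.5%) of the single libraries, with a median placeable share of 13.5%. Values of pooled sets and single libraries are therefore not set against each other below to compare cells or treatments. Comparisons that need equal treatment use the 2217 members with at least 90% placeable words beside all members.

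**Figure D1:**
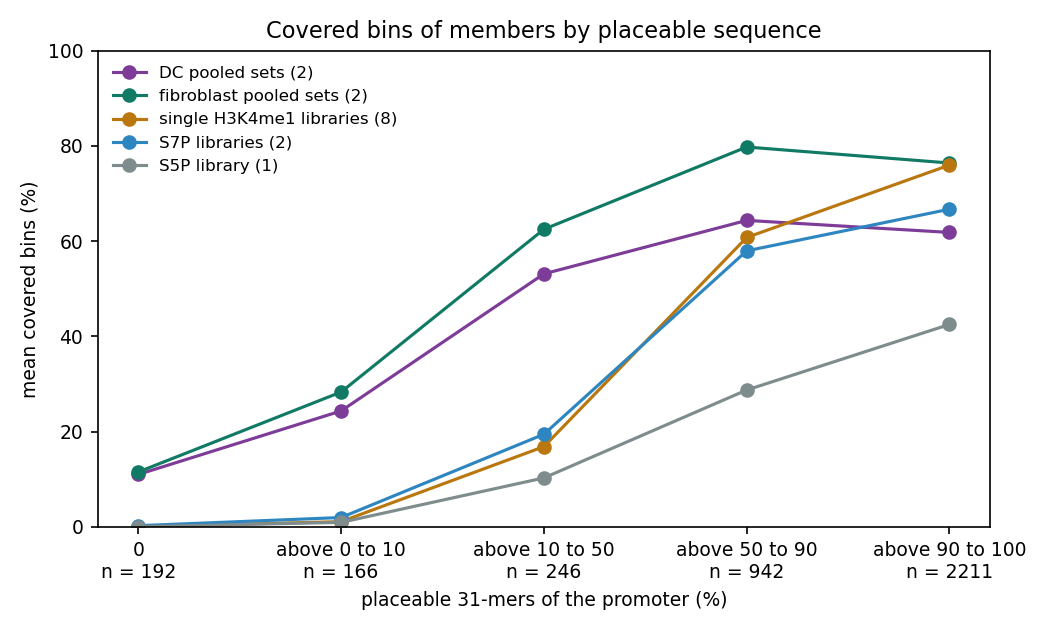
Mean share of 10-bp bins with a value above 0 (y axis, percent) for members grouped by the share of placeable 31-base words (x axis, percent, with the number of members), as means over the libraries named in the key. At 0% placeable, pooled sets reached 11.0% and 11.5% of bins and the single libraries 0.00586%, and above 90% the pooled fibroblast sets and single libraries came to 76.4% and 76.0%.

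Because the deposited occupancies are scaled to the surrounding 1 kb, they hold no depth. Coverage was instead read as the share of the 200 bins from −1000 to 1000 bp with a value above 0. The occupancies are smoothed over 50 bp, so fragments in neighbouring bins also give a bin a value. The share depends on how deeply a library was sequenced, which the values do not give. It also takes in the bins of any NDR, whose part in differences between classes was not tested. Members were covered in 56.3% of bins in non-stimulated DCs and 55.3% after LPS, and in 68.8% and 68.4% in fibroblasts without and with TNF-α. In the 8 single libraries the mean was 59.1% ± 1.69 (SD, n = 8), from 56.9% in control TNF-α replicate 2 to 61.8% in BAF-knockdown TNF-α replicate 2. Coverage of silent low-coverage promoters was thus far from nil. The non-stimulated data set the score by which members were chosen, so a low rank there is a description only.

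Whether members were covered less than expressed promoters of the same score class depended on which promoters were compared. Low-coverage promoters expressed in both cell-types, whose median score of 72.5 is above that of the members, were covered in 66.2% ± 5.10 of bins in the 8 single libraries. Members lay below them (difference -7.05 percentage points ± 5.45, SD, lower in 8 of 8 libraries, two-sided exact sign-flip permutation test, p = 0.00781, the smallest value possible, and 0.0234 after Benjamini-Hochberg adjustment over 6 tests). The score itself counts fragments in non-stimulated cells, and the median score of the members was 30. Lower coverage was therefore favoured by the choice of members, and this test cannot separate expression from score. Restricted to promoters at least 90% placeable, the direction turned, and members were covered in 75.9% of bins and expressed low-coverage promoters in 66.7% (difference 9.23 ± 5.55, higher in 7 of 8 libraries, exact permutation p = 0.0156). When rows with no signal were left out, the difference was 1.66 ± 5.58 (exact permutation p = 0.422). The classes at least 90% placeable also differed in CpG islands. Of the members 279 had an island and 1938 had none, against 3371 and 974 of the expressed promoters. With an island, members were covered in 65.26% of bins of the single libraries and expressed low-coverage promoters in 65.02%. Without an island the values were 77.5% and 72.6%. The part of CpG islands in the turned direction was not tested.

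**Figure D2:**
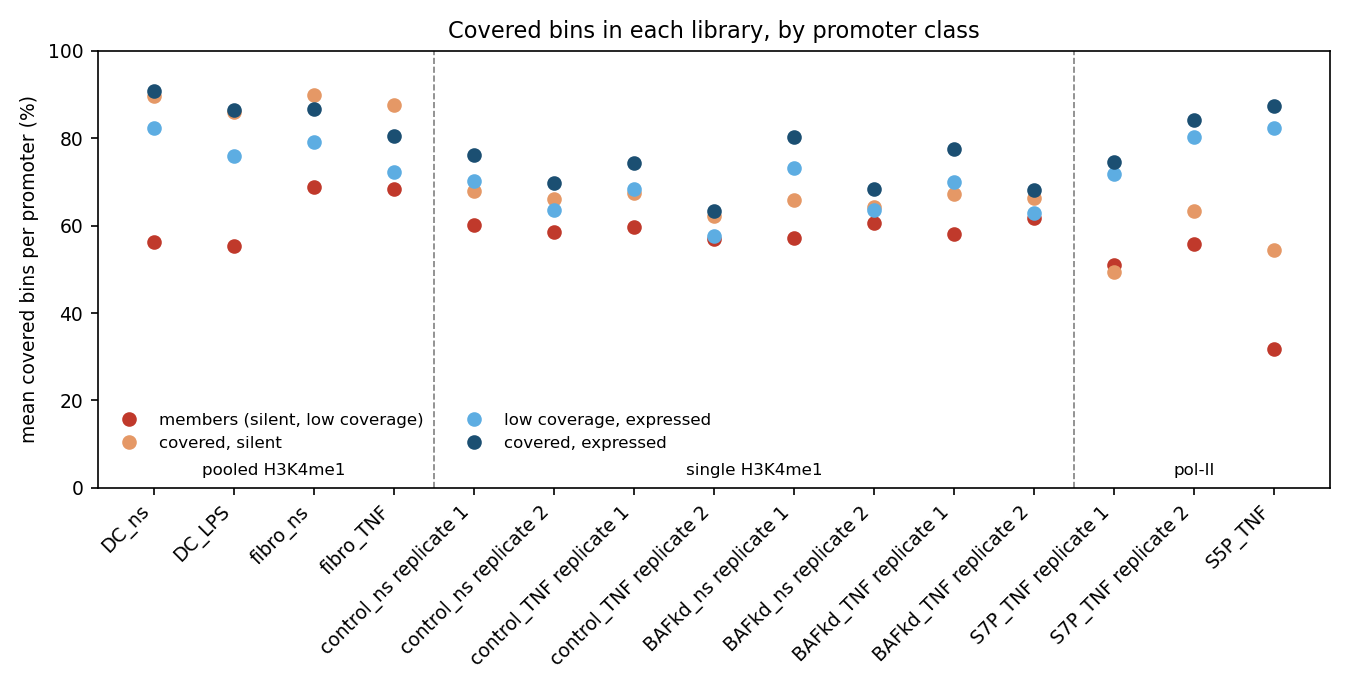
Mean share of bins with a value above 0 (y axis, percent) in each of the 15 sets (x axis), with 1 point for each of 4 promoter classes and dashed lines between pooled H3K4me1, single H3K4me1 and pol-II libraries. Members are the lowest class in each set except S7P replicate 1, and come closest to the expressed low-coverage class in control TNF-α replicate 2 (56.9% against 57.6%).

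The shape of occupancy at members was flat. Expressed promoters showed the familiar profile, with occupancy before the TSS falling to between 0.492 and 0.629 of the class mean in the pooled sets (low-coverage, expressed) and a first nucleosome rising to between 1.33 and 1.5. At members the lowest bin within 200 bp of the TSS was 0.904 to 0.944 of the mean, 65 to 95 bp before the TSS, and the highest bin 1.10 to 1.12. In non-stimulated DCs some bins farther from the TSS were lower still, so that the dip was not the minimum of the profile. The silent promoters with higher scores had a lowest bin within 200 bp of 0.908 to 0.922.

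**Figure D3:**
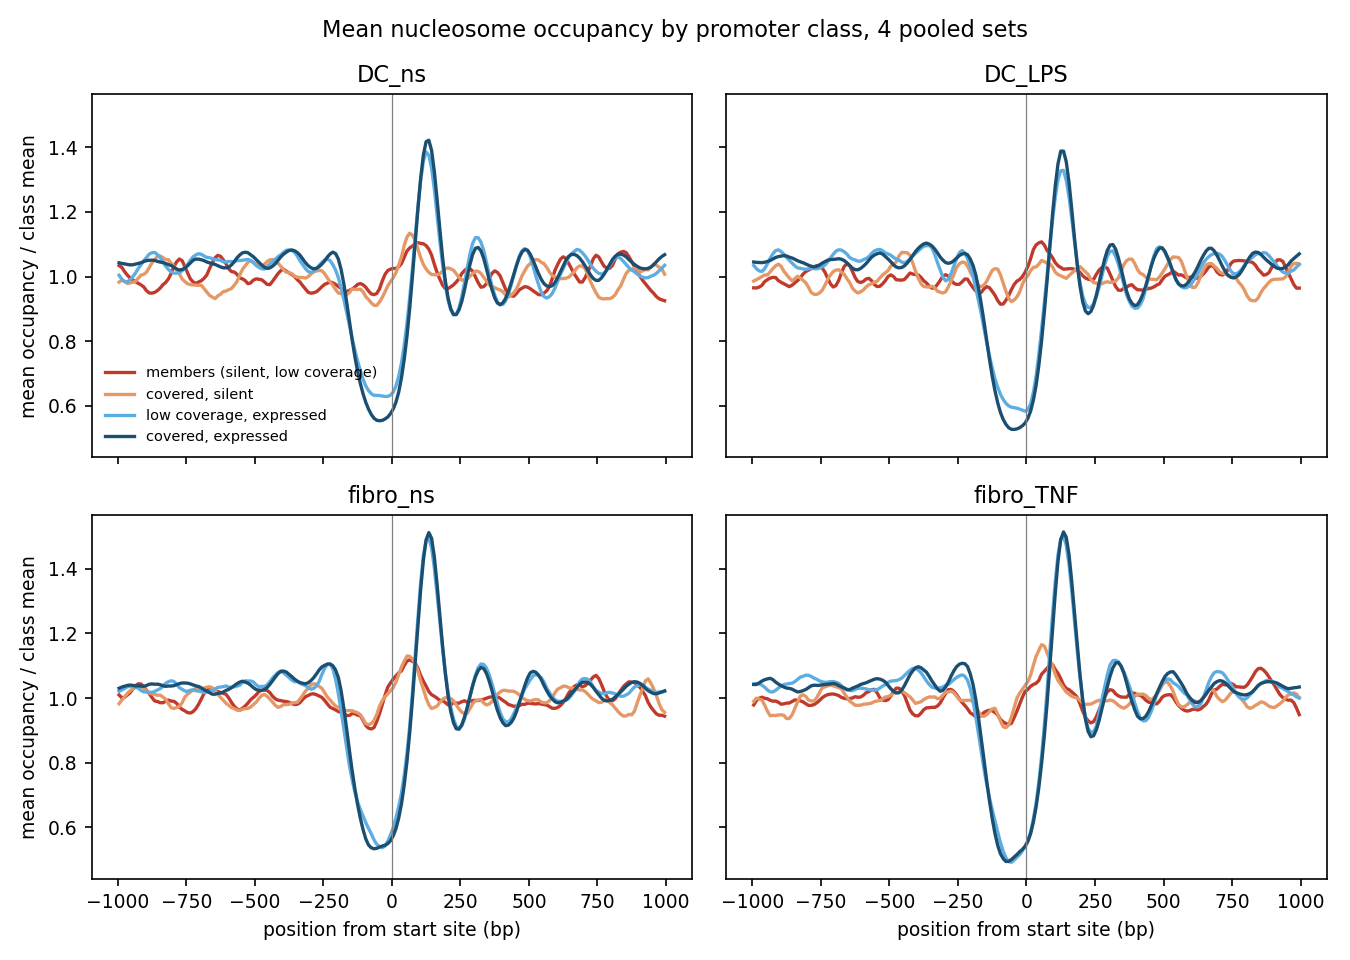
Mean nucleosome occupancy divided by the class mean (y axis) against the position from the TSS in bp (x axis) in the 4 pooled H3K4me1 sets, with 1 line for each promoter class. Expressed promoters of either score class dip to 0.629 or less before the TSS, whereas members do not fall below 0.904 within 200 bp of it.

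The NDR ratio sums this up as mean occupancy from −150 to 0 bp over that from −1000 to −500 bp, so that a ratio near 1 means no depletion. Neither score nor expression enters it. Members had a ratio of 0.989 ± 0.00821 (SD, n = 8 single libraries), from 0.982 to 1.01, and between 0.956 and 0.972 in the pooled sets. Expressed low-coverage promoters had 0.674 ± 0.0646, from 0.590 to 0.750. The libraries of both classes did not overlap, and the difference of 0.315 ± 0.0618 was above 0 in 8 of 8 libraries (two-sided exact sign-flip permutation test, p = 0.00781, adjusted 0.0234). It was 0.294 ± 0.0692 with promoters at least 90% placeable (exact permutation p = 0.00781).

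Set against the 926 silent coding promoters with scores above 100, the difference was small. These had a ratio of 0.953 ± 0.0372, and members lay above them by 0.0363 ± 0.0308, in a range of -0.0141 to 0.0688 over the libraries (exact sign-flip permutation test, p = 0.0313, adjusted 0.0469). The pooled sets mostly went the other way, since members were below these promoters in LPS-treated DCs (0.964 against 0.985) and in fibroblasts without (0.956 against 0.958) and with TNF-α (0.956 against 0.973). Over all 12 H3K4me1 sets the difference was 0.0229, with members higher in 7 and lower in 5. With promoters at least 90% placeable the ratio of members was 0.960 and the difference 0.00794 ± 0.0418 (exact permutation p = 0.609), so the call was lost. It was also lost (exact permutation p = 0.0625) when any library but control TNF-α replicate 1 or BAF-knockdown TNF-α replicate 2 was left out.

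The patterning level measures how far the profile of a promoter follows the mean profile of active promoters, with 0 for no likeness. Members had a mean of -0.343 ± 0.0599 in the single libraries and between 0.306 and 0.624 in the pooled sets, where expressed low-coverage promoters reached 6.70 to 8.86. The silent promoters with higher scores had 0.0699 ± 0.282 in the single libraries, and members lay below them by 0.413 on average (difference -0.413 ± 0.272, exact sign-flip permutation test, p = 0.0156, adjusted 0.0313). Members were above them in 3 of the 4 pooled sets, namely LPS-treated DCs (0.306 against 0.291) and fibroblasts without (0.339 against 0.0961) and with TNF-α (0.624 against 0.197). Over all 12 sets the difference was -0.240, with members higher in 4. The difference in the single libraries was not called for promoters at least 90% placeable, where it was -0.201 ± 0.375 (exact permutation p = 0.164).

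Members with a CpG island stood apart in shape. Among those at least 90% placeable, the 279 with an island had an NDR ratio of 0.832 (range 0.775 to 0.873 over the 8 single libraries), against 0.978 (0.961 to 0.990) at the 1938 without. Their mean patterning level was 0.803, against -0.0650. Expressed low-coverage promoters with an island had a ratio of 0.609 (0.508 to 0.701), so silent members with an island were less depleted than these. The silent promoters with higher scores and an island had 0.846 (0.750 to 0.926), a range that overlaps that of the members. These are descriptions over promoters, with no test.

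Families differed widely in coverage. Odorant receptors were covered in 67.8% of bins of the single libraries (range 64.99% to 71.0%), with an NDR ratio of 1.04 (1.00 to 1.08) and a mean patterning level of -1.16. None of the 969 had a CpG island. Olfr1384, with the highest score of the family at 99.25, was covered in 75.5% ± 7.94 of bins (SD, n = 8 single libraries), and Olfr1143, at the family's median score of 28.5, in 79.3% ± 10.5. The member with the higher score did not have the higher coverage in the single libraries, and the values of both overlapped. Type 1 vomeronasal receptors reached 41.5% and type 2 51.2%, with median placeable shares of 63.7% and 75.8%. Within them, Vmn1r14 was covered in 74.9% ± 8.86 of bins and Vmn2r3 in 87.8% ± 6.02, both with scores at their family's median.

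Taste receptors, which sense bitter and other substances, were the best covered of the 19 families with at least 20 members in the single libraries, at 89.8% (88.4% to 91.3%). They were placeable in 99.5% of words at the median and had a median GC content of 36.4%. In DCs they reached only 44.5% and 48.6% (after LPS), in pooled fibroblasts 81.7% and 84.5%. Tas2r106 had 93.5%, 90.5%, 91.5%, 92.5%, 93.5%, 83.5%, 89.0% and 86.5% in the single libraries, in the order control and then knockdown with non-stimulated before TNF-α libraries. In the pooled sets Tas2r106 had 42.5% and 41.5% in DCs and 84.5% and 70.5% in fibroblasts. Keratins followed with 83.2% in the single libraries and cornified envelope proteins with 80.2%. Lce1a2, a late cornified envelope gene, had 89.9% ± 7.23 and Sprr2k, a small proline-rich one, 83.2% ± 8.39.

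At the lower end, predicted genes were covered in 18.9% of bins of the single libraries, Rhox homeobox genes in 13.6% and alpha defensins in 8.67%, and their median placeable shares were 7.28%, 22.4% and 13.5%. Rhox13, with 92.9% of words placeable, was nonetheless covered in 34.8% ± 11.7 of bins, from 20.5% to 53.5%. Keratin associated proteins had the highest NDR ratio of the families at least 90% placeable at the median, at 1.23 (1.16 to 1.30), and a mean patterning level of -2.17. Pregnancy specific and Ceacam glycoproteins, made in placenta and epithelia, had the lowest of all 19 families at 0.689 (0.502 to 0.994), from 20 promoters only.

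**Figure D4:**
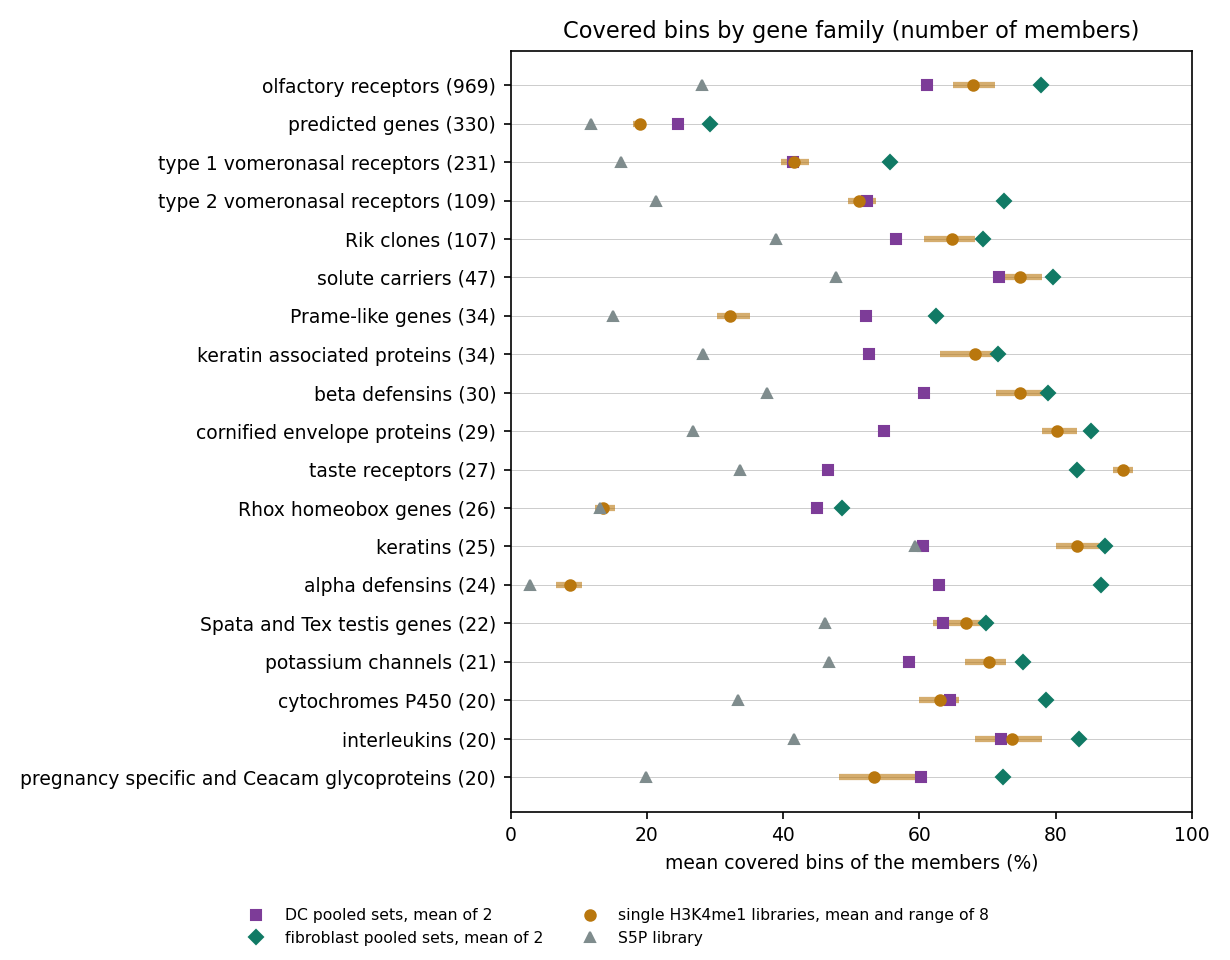
Mean share of bins with a value above 0 (x axis, percent) for the 19 families with at least 20 members (y axis, number of members in brackets), as points for DC and fibroblast pooled sets, single H3K4me1 libraries with a bar for their range over 8, and the S5P library. Taste receptors lie highest in the single libraries (89.8%) and alpha defensins lowest (8.67%), although the latter exceed 86% in the pooled fibroblast sets.

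The best covered members reached nearly every bin. Trpm8, the cold receptor channel of sensory neurons, was covered in 99.7% ± 0.372 of bins of the single libraries (SD, n = 8), from 99.0% to 100%, and in 98.5%, 98.5%, 94.5% and 96.0% in the pooled sets. Tmed11 (98.6%), Vmn2r28 (98.1%), Tdpoz2 (97.6%), Olfr263 (96.6%), Tas2r122 (96.6%), Gm6614 (96.2%), Pmfbp1 (96.0%) and Tas2r129 (95.9%) followed, together with a transcript that had no matched symbol (96.8%). All but Vmn2r28, at 89.7%, were placeable in over 90% of their words. Their scores ran from 20 (Tas2r122) to 80.75 (Tmed11), so none was near the limit of 100.

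At that limit, Aqp12, Atp6v1e2 and BC016579 had a score of exactly 100, and Cldn34b2, Krt13 and Ppp1r3g, at 100.25, were just outside. The first 3 were covered in 64.1%, 87.9% and 67.9% of bins of the single libraries and the other 3 in 61.3%, 92.0% and 83.6%. Both ranges overlap, and the limit cuts through a continuum.

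DCs and fibroblasts were next compared in the pooled sets, which were alike at repeated promoters. Both fibroblast sets lay above both DC sets at 2209 members (56.9%), against 26.2% of all promoters, and both DC sets lay above both fibroblast sets at 368 members (9.47%), against 29.5% of all promoters. With 2 sets per cell-type, which differ in stimulation and are not replicates, no test was made. The median difference of DCs minus fibroblasts was -12.75 percentage points over the members and 1.00 over all promoters. It was 4.25 over promoters expressed in both cell-types with scores above 100 and 4.5 over low-coverage promoters expressed in both. Over members at least 90% placeable it was -16.0. The median was 0.250 over silent promoters with higher scores, which were covered in 86.0% to 89.8% of bins in these sets. Depth and cell-type cannot be told apart here.

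The difference ran through most families. All 24 alpha defensins and all 14 members of the prolactin family had higher values in both fibroblast sets, as did 28 of 29 cornified envelope proteins and 25 of 27 taste receptors. Among 969 odorant receptors it was 700, with 54 in the other direction. Mage genes, X-linked germ-cell genes, were an exception with 2 higher in fibroblasts and 3 in DCs of 14.

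Prl2b1, a placental hormone gene, had 38.0% and 34.5% in DCs and 99.0% and 96.0% in fibroblasts. Irx6, a homeobox gene, had 20% and 32.5% against 79% and 90%, and Tas2r113 15% and 27.5% against 88.0% and 80.0%. For Smgc, a salivary mucin-like gene, the values were 43.5% and 27.5% against 95.5% and 93.0%, and a transcript without a matched symbol that starts 2 bp away shares them.

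In the opposite direction, Cyp2b9, a liver cytochrome P450, had 78.0% and 89.0% in DCs and 13% and 16% in fibroblasts, at 41.3% of words placeable. Gsc, a homeobox gene of the embryo, had 90.5% and 91.0% against 44.5% and 47.5%. Olfr67, the odorant receptor next to the beta-globin cluster, had 99.5% and 80.0% against 48.5% and 42.5%. Cd40lg, which encodes the ligand by which T cells activate DCs, had 99.5% and 91.0% against 53.0% and 58.5%, and Pitx1, a hindlimb homeobox gene, 91.5% and 92.0% against 71.0% and 36.5%. These 5 were chosen for the size of the difference, so the values are descriptions.

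GC content, taken within 200 bp of the TSS, moved with the difference between cell-types. At members at least 90% placeable with a GC content of 40% or less (550 promoters), DC sets were covered in 52.9% and 54.1% of bins and fibroblast sets in 72.7% and 74.9%. Above 60% GC (344 promoters) the DC sets had 71.1% and 64.9% and the fibroblast sets 75.4% and 72.8%. The single fibroblast libraries went the other way, from 78.8% (76.1% to 81.9%) at the lowest to 66.7% (63.0% to 71.8%) at the highest GC content. The part of GC content in the difference between DCs and fibroblasts was not tested.

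**Figure D5:**
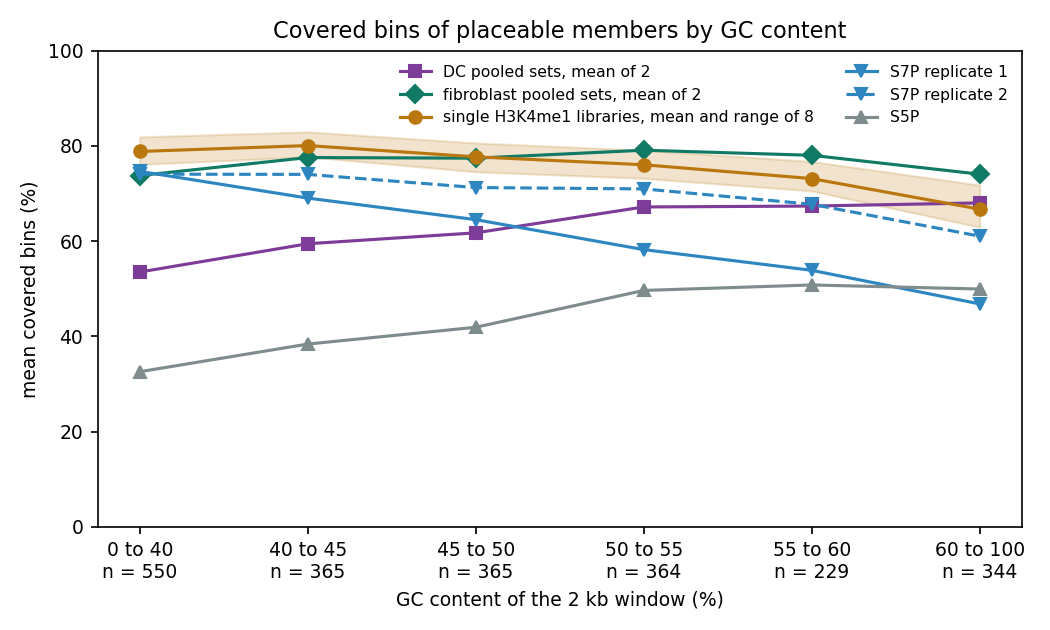
Mean share of bins with a value above 0 (y axis, percent) for members at least 90% placeable, grouped by GC content (x axis, percent, with the number of members), for the libraries named in the key. The shaded band gives the range of the 8 single libraries. The axis title names the 2 kb window, but GC content was taken within 200 bp of the TSS. Non-stimulated DCs rise from 52.9% to 71.1% over the GC range, S7P replicate 1 falls from 74.7% to 46.8%, and the pooled fibroblast sets stay between 72.7% and 80.2%.

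In the pol-II libraries, which are paired-end whereas the H3K4me1 libraries are single-end, antibody and sequencing cannot be told apart. Members were covered in 51.0% and 55.8% of bins with S7P and in 31.9% with S5P, or 68.3%, 66.2% and 36.4% of the level at promoters expressed in both cell-types with scores above 100. In the 8 single H3K4me1 libraries the same ratio was 71.3% to 90.8%. Among promoters at least 90% placeable it was 83.2% and 82.6% with S7P, 47.9% with S5P and 90.5% to 114.7% in the single H3K4me1 libraries, where members exceeded the expressed promoters in 6 of 8. Without this limit, silent promoters with higher scores were covered in 49.4% and 63.3% of bins with S7P and in 54.5% with S5P. The expressed promoters had 74.6%, 84.2% and 87.4%. With S5P, 63 members (1.62%) were covered in at least 90% of bins, against 60.7% of those expressed promoters. Only 1 of the 63 was a sensory receptor (Olfr221), and 16 had a CpG island.

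Some of the 63 are genes of other tissues, such as Catsper1, a sperm ion channel gene (92.0%), Cpa1 (94.5%), Ctrb1 (90.5%) and Cryaa, a lens crystallin gene (90.5%). Pitx1 reached 95.0%, above its values of 50% and 60% with S7P. Odorant receptors had 63.7% and 63.9% with S7P and 28.2% with S5P. Silence in these cells was defined by expression before stimulation, whereas pol-II was measured after TNF-α.

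TNF-α and BAF knockdown, finally, were compared over the 8 single libraries. For each promoter, patterning level and covered bins were modelled in limma, each with 1 term for TNF-α and 1 for the knockdown. Of the members, 3462 had a value in at least 1 of these libraries and could be tested. None was called for either measure and either term at a Benjamini-Hochberg adjusted p under 0.05 (limma), and none of all 25221 promoters tested was (0%). At an unadjusted p under 0.05, TNF-α gave 149 members (4.30%, against 4.78% of all promoters) for patterning and 74 (2.14%, against 2.99%) for covered bins. Knockdown gave 167 members (4.82%, against 5.07%) for patterning and 94 (2.72%, against 3.21%) for covered bins. Members were thus at or below the share of all promoters in each case. The median standard error of a member was 5.79 percentage points of covered bins, so small changes of single promoters were not detectable.

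The mean of covered bins over members did not separate the conditions either. TNF-α libraries were covered in 59.1% ± 2.10 and non-stimulated libraries in 59.1% ± 1.49 of bins (SD, n = 4 each), a difference of 0.0435 percentage points (two-sided exact permutation test, p = 0.971, where 0.0286 is the smallest value possible). Knockdown libraries had 59.4% ± 2.08 and control libraries 58.8% ± 1.44, a difference of 0.618 (exact permutation p = 0.571). The latter was 2.33 (exact permutation p = 0.133, with 0.0667 the smallest possible) without both replicate 1 knockdown libraries, whose deposited names carry another digestion label than the other 6 single libraries, and -0.0219 without control TNF-α replicate 2. Over all promoters tested, the mean fitted change in covered bins was -1.82 percentage points with TNF-α and 1.79 with knockdown, and over the members it was 0.0488 and 0.693. The members' mean patterning level was higher in the TNF-α library of each same-numbered pair, by 0.0658 and 0.102 in control cells and 0.0441 and 0.0286 in knockdown cells, while the levels of TNF-α libraries (-0.383 to -0.243) and non-stimulated libraries (-0.449 to -0.337) overlapped. This difference was not tested.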

How the data were processed

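Occupancies of 15 ChIP-MNase sets were used. The authors aligned reads with bowtie to mm9, filtered surplus duplicate reads, limited paired-end data to mononucleosomal fragments between 140 and 180 bp, and kept fragments within 10 kb of promoters. The deposited signal is the count in 10 bp bins relative to the surrounding 1 kb, smoothed over 50 bp, with no read counts, so depth is unknown. Pooled sets reach at most 20 and the others 10. The deposited score counts fragments near each TSS and has no stated way of combining libraries. Expression is FPKM of public RNA-seq, given by the authors. The authors' differences in expression upon stimulation were not used. No column of per-sample values was left unmapped.

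An empty bin was read as 0. The members and lists were chosen with earlier results of these data known. Symbols came from the reference table for 98.1% of promoters, and 88.5% of members started within 50 bp of an annotated mm9 transcript start, against 0.0799% when moved by 5000 bp. Words of 31 bases were counted on both strands. Templates for patterning used 6458 active promoters of non-stimulated fibroblasts. Promoters were fitted with limma 3.58.1 in R 4.3.3, library means were compared by exact permutation, and scripts were tested on simulated data. Genes were named by rule: per family or tissue list the highest and median score, the 10 best covered, the 5 largest differences between cell-types each way, the 5 longest runs, and 3 on either side of the score limit. Tissue-list genes beyond this rule were chosen after their values were seen. Alternatives were the replicate block, libraries left out, other windows, scalings and filters. 2 alternatives were added after the data were seen, placeable sequence and leaving out both libraries with another digestion label.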

Additional observations from a re-analysis of the deposited data

Results flagged for a closer look

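The change of mean covered bins with TNF-α had opposite signs in control and BAF-knockdown fibroblasts when libraries with the same replicate number are subtracted. It was -0.370 and -1.65 percentage points in control cells and 0.915 and 1.28 in knockdown cells, and the mean of the former minus that of the latter was -2.11. The difference was not tested, it rests on pairing by replicate number, which correlations of 0.0936 to 0.356 in covered bins leave unsettled, and the values of TNF-α and non-stimulated libraries overlap within control and within knockdown cells. In no group of 4 single libraries did 1 library stand apart in covered bins, NDR ratio or patterning level of the members.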

How the results depend on the processing

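Members lay below expressed low-coverage promoters in covered bins by -7.95 to -5.78 percentage points when each library was left out, but the difference was 1.66 without rows that had no signal and 9.23 with promoters at least 90% placeable. The larger NDR ratio against silent promoters with higher scores ranged from 0.0317 to 0.0435 when each library was left out and was 0.00794 with promoters at least 90% placeable, and the lower patterning level ranged from -0.481 to -0.367 and was -0.201. The NDR difference from expressed low-coverage promoters stayed between 0.294 and 0.332 under every setting tried. Leaving out 1 library at a time moved the TNF-α difference in mean covered bins between -0.835 and 0.793 and the knockdown difference between -0.165 and 1.34, none past the threshold. No member was called by limma under any alternative run.

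It is unclear whether replicate numbers pair the libraries. Deviations of same-numbered libraries correlated at -0.00706 to 0.0120 for patterning and at 0.0936 to 0.356 for covered bins, where 5 of 6 pairs of groups were above 0.1, short of all 6. With the replicate block, 0 members were called for TNF-α or knockdown, and the differences in mean covered bins stayed 0.0435 (exact permutation p = 1) and 0.618 (exact permutation p = 0.611). At an unadjusted p under 0.05 the block gave 148 members for TNF-α and 168 for knockdown in covered bins, against 74 and 94 without it, and 6.49% and 6.53% of all promoters.

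Depth is unknown, so an empty bin is a bin without fragments and not one without a nucleosome, and single promoters carry large errors. Only exact copies were counted, so words with mismatched copies count as placeable.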
